A study of Rattus norvegicus with 64 samples.

Results

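The 9 genes described here encode proteins with which macrophages bind, take up or restrain the uptake of particles. They are the scavenger receptors Marco, Msr1 and Cd36, the mannose receptor Mrc1, the beta-glucan receptor Clec7a, the sialic acid lectins Siglec1 and Siglec5, the CD47 receptor Sirpa and the lysosomal glycoprotein Cd68. They were taken by symbol, and all 9 of them were found among the 30045 gene symbols of both count tables.

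The values come from RNA sequencing of a piece of lung from 64 male rats of the outbred Sprague-Dawley stock. The dust rats breathed fracking sand dust, a mineral dust rich in silica, at 10 or 30 mg/m3 for 6 hours a day on 4 days, and the air rats breathed filtered air in the same kind of chamber. Lung tissue was collected 1, 7 or 27 days later. Each concentration was a study with air rats of its own, so there are 12 groups. The 30 mg/m3 study has 6 dust and 6 air rats for each day. The 10 mg/m3 study has 5 dust and 5 air rats for day 1, the same for day 7, and 4 of each exposure for day 27. A piece of lung holds all its cell types, so the labels do not separate macrophages from epithelium, vessels or blood. Each library carries a number of its own, taken as the number of the rat. Nothing else in the labels says that libraries are separate animals, and p-values measure the spread between these libraries.

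Library totals ran from 3420235 counts, in dust rat 27 of day 1 at 10 mg/m3, to 12359518 counts, with a median of 8716414. Levels are given as CPM, the counts of a library scaled to a common total after correction by the trimmed mean of M-values (TMM). The lung genes Sftpc, of alveolar type 2 cells, Scgb1a1, of airway secretory cells, and Cdh5, of endothelium, were present in every library, at no less than 6748, 1063 and 327 CPM. Air rats 51 and 53 of day 1 at 30 mg/m3 had counts for 21889 and 22077 genes, above the median of 19263 genes, so results that rest on them are also given without them. No pair of libraries within a group agreed within counting noise (lowest chi-square per degree of freedom 2.14).

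Macrophages of the alveoli clear inhaled particles from the gas-exchange surface. Scavenger receptors bind polyanionic ligands, which include oxidised lipoproteins, bacterial walls and mineral particles, and hand them to the lysosome, where Cd68 is a major membrane glycoprotein. Lectin receptors bind sugars on microbes and on host cells. Sirpa works the other way: when it meets CD47 on a neighbouring cell, its cytoplasmic tail recruits the phosphatases Ptpn6 and Ptpn11 and phagocytosis is restrained.

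The receptors differed widely in how well they could be measured. Marco, a class A scavenger receptor of macrophages, was at 0 in 46 of 64 libraries and at 2 counts or fewer in the others, 22 counts in all. With 3 counts taken as the detection limit of a library, between 0.246 and 0.918 CPM, no library was above it, so Marco was not detectable in these counts in any group and was not tested. The annotation and strand option used in counting are not known, and their part in the near absence of Marco was not tested. The other 8 members passed the filter on low counts in every fit. Their medians over the 64 libraries were 36.9 CPM for Msr1, 54.2 CPM for Cd36, 268 CPM for Mrc1, 159 CPM for Clec7a, 14.5 CPM for Siglec1, 19.3 CPM for Siglec5, 159 CPM for Sirpa and 38.5 CPM for Cd68. CPM carries no correction for transcript length, so these levels are not compared between genes.

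Sirpa, the inhibitory receptor of CD47, was the member called lower with dust by edgeR, in the 30 mg/m3 study only. At 30 mg/m3 its mean over the 3 days fell by 0.29 ± 0.06 on the log2 scale (SE; 6 rats in each group; edgeR adjusted p = 0.022), which is 0.819 times the air level. It was the only 1 of 8 tested members past the threshold of 0.05 in that comparison, in which 1.2% of the 15551 genes passed and 0.206% of all were lower. Of these 15551 genes, 2764 had an unadjusted p under 0.05 and 420 passed by DESeq2. In whole lung, fewer cells that carry the Sirpa transcript and less of it in each cell cannot be told apart.

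Each day by itself gave a value below 0, of differing size. On day 1 the dust rats of the 30 mg/m3 study had a lowest, median and highest Sirpa level of 110.8, 129.8 and 141.3 CPM, against 120.9, 181.9 and 197.8 CPM in the air rats. All dust rats lay below all air rats but 1, rat 53. On day 7 the dust rats had 121.7, 138.6 and 165.9 CPM and the air rats 145.1, 152.7 and 181.0 CPM, and the groups overlapped. On day 27 the dust rats had 135.8, 163.9 and 200.9 CPM, against 172.6, 186.9 and 216.9 CPM in the air rats, again with overlap. The log2 fold change of dust over air was -0.46 ± 0.10 on day 1 (SE; edgeR adjusted p = 0.161), -0.17 ± 0.10 on day 7 (adjusted p = 0.959) and -0.24 ± 0.10 on day 27 (adjusted p = 0.57), so no day passed by itself. Whether the effect of dust depended on the day did not pass either (edgeR adjusted p = 0.981).

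**Figure D1:**
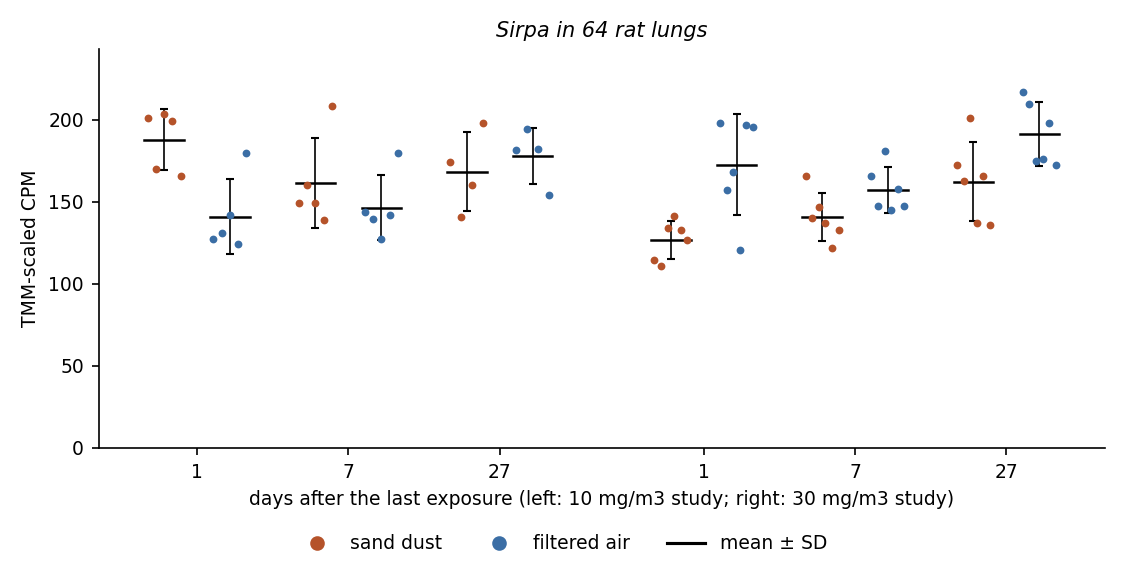
Sirpa in TMM-scaled CPM, 1 point per rat, in the 6 groups of the 10 mg/m3 study on the left and the 6 groups of the 30 mg/m3 study on the right. Dust rats stand left of air rats of the same day, and black bars give the mean and SD of a group. At 30 mg/m3 the dust mean lies below the air mean on all 3 days, and at 10 mg/m3 it lies above the air mean on days 1 and 7 and below it on day 27.

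The mean fall of Sirpa at 30 mg/m3 kept its call in 36 of 36 fits that left out 1 library, with log2 fold changes from -0.32 to -0.27 and a highest adjusted p of 0.0466. Without air rats 51 and 53 it was -0.33 ± 0.05 (edgeR adjusted p = 0.000412), and day 1 by itself was -0.59 ± 0.10 (adjusted p = 0.00391). Calls over all genes rose too in that setting, from 187 to 1014 in the mean effect and from 0 to 877 on day 1. The smaller adjusted p is therefore not particular to Sirpa. DESeq2 called day 1 with those rats kept in (adjusted p = 0.0317). Without day 1, the mean of days 7 and 27 was -0.20 ± 0.07 and did not pass (adjusted p = 0.403), a setting added once the data had been seen.

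Markers of macrophages, monocytes and other leukocytes are given beside Sirpa, though which cells carried its transcript in these lungs was not measured. Of 14 alveolar macrophage markers other than the members, 13 are in the tables, Ear1 had a median of 0 counts, 11 were tested and 0 passed in the mean effect at 30 mg/m3 (edgeR; 4 at an unadjusted p under 0.05, 0 by DESeq2). Of all 15551 genes, 2764 had an unadjusted p under 0.05 there. The markers' median log2 fold change was -0.10, against 0.01 over all genes, and the smallest p belonged to the lipid droplet gene Cidec at -0.44 ± 0.14 (edgeR adjusted p = 0.0875), which is on the adipocyte list too. Pparg and Csf2rb, whose values are given below with other lists, are also among these alveolar macrophage markers. Of 16 monocyte and interstitial macrophage markers, Ccr2 and Adgre1 are not in the tables, 14 were tested and 0 passed as well (1 at an unadjusted p under 0.05, 0 by DESeq2). The summed level of the alveolar macrophage markers on day 1 was 739 to 899 CPM in dust rats, against 721 to 865 CPM in air rats. On day 27 these markers summed to 634 to 885 CPM in dust rats and 712 to 817 CPM in air rats. The monocyte and interstitial macrophage markers summed to 766 to 814 CPM in dust rats of day 1, against 770 to 858 CPM in air rats. The pan-leukocyte and myeloid markers summed to between 11934 and 18910 CPM in dust rats of day 1 and between 12829 and 16089 CPM in air rats. Of the 10 genes of that list 0 passed (2 at an unadjusted p under 0.05, 0 by DESeq2), and their median was 0.02. With the mean log2 level of the list as a covariate the fall of Sirpa was as large, at -0.29 ± 0.06 (adjusted p = 0.0161).

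Markers of other cells passed in the same comparison. Among 10 tested neutrophil markers, Lcn2, which withholds iron from bacteria, rose by 0.75 ± 0.18, and Cd177, a neutrophil surface protein, rose by 1.05 ± 0.27 (adjusted p = 0.0354 and 0.048), and their part in the result for Sirpa was not tested. Of 11 tested heart muscle markers, which mark the muscle sleeve of the pulmonary veins in rat lung, Myl3 fell by 3.31 ± 0.76 (adjusted p = 0.0304) and all 11 were below 0. On day 7 the sum of these markers was 103 to 324 CPM in dust rats and 467 to 1676 CPM in air rats, with no overlap. Mitochondrial ribosomal RNA also took fewer of the counts in dust rats of that day, at 0.109 to 0.453%, against 0.458 to 0.885% in air rats, and its part in the result for Sirpa was not tested. With the heart muscle score as a covariate the fall of Sirpa was -0.31 ± 0.06 (adjusted p = 0.0277).

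The genes that work with Sirpa did not pass with it. Of 12 tested ligands and signalling partners, 0 passed in the mean effect at 30 mg/m3 (edgeR; 2 at an unadjusted p under 0.05, 0 by DESeq2), with 4 above 0 and a median of -0.07. The smallest p belonged to Csf2rb, the shared chain of the GM-CSF receptor, at -0.18 ± 0.07 (adjusted p = 0.205), and to Thbs1, a secreted ligand of CD47, at -0.16 ± 0.07 (adjusted p = 0.217). Cd47, the ligand of Sirpa and named here for that role, had 260 ± 29.9 CPM in dust rats of day 1 at 30 mg/m3 and 263 ± 15.9 CPM in air rats (SD, n = 6 each), a difference within the spread between rats.

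At 10 mg/m3 Sirpa stood the other way round on day 1. The dust rats had 201.0, 170.1, 203.7, 199.0 and 165.8 CPM, against 127.0, 131.0, 142.2, 124.3 and 179.9 CPM in the air rats. The groups overlapped only through air rat 21, at 179.9 CPM. Dust over air gave a log2 fold change of 0.42 ± 0.12 (SE; edgeR adjusted p = 0.0892; 0.032 by DESeq2), and 0.53 without air rat 21 (adjusted p = 0.00746). Of the fits that left out 1 library, that fit alone called Sirpa. It also called far more genes over the whole table than the 20 of the main fit, so the call is not particular to Sirpa. Mitochondrial ribosomal RNA took 3.01% of the counts of air rat 21 and 2.62% of those of dust rat 27, and its part was not tested.

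On day 7 the dust rats had 149.5, 160.1, 149.4, 138.6 and 208.4 CPM and the air rats 143.6, 139.7, 127.1, 141.8 and 179.6 CPM, with overlap. On day 27 the dust rats had 174.3, 140.6, 160.5 and 198.1 CPM and the air rats 181.4, 194.4, 182.2 and 154.2 CPM, also with overlap. The log2 fold changes were 0.13 ± 0.12 on day 7, -0.10 ± 0.13 on day 27 and 0.15 ± 0.07 in the mean of the days (adjusted p = 0.526), none past the threshold. A clock score, the log2 level of Dbp minus that of Arntl, averaged -0.43 ± 0.81 in dust rats of day 1 at 10 mg/m3 and -3.66 ± 0.58 in air rats (SD, n = 5 each), so time of day and dust cannot be told apart there. The same holds on day 27 at 10 mg/m3, where the score was -1.55 to 0.37 in dust rats and -3.77 to -2.26 in air rats, without overlap. With this score as a covariate the day 1 value of Sirpa was 0.28 ± 0.18 (adjusted p = 0.78; an alternative chosen after earlier results of these data were known). At 30 mg/m3 the score averaged -2.31 ± 1.06 in dust rats of day 1 and -2.60 ± 1.02 in air rats. On day 27 at 30 mg/m3 it averaged -1.69 ± 1.70 in dust rats and -3.04 ± 1.29 in air rats, with overlap (SD, n = 6 each). The mean fall of Sirpa at 30 mg/m3 with this score as a covariate was -0.29 ± 0.06 (edgeR adjusted p = 0.0406).

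The dust effect on Sirpa differed between the studies. The mean effect at 30 mg/m3 minus that at 10 mg/m3 was -0.44 ± 0.09 on the log2 scale (SE; 64 libraries; edgeR adjusted p = 0.0219), and Sirpa was the only 1 of 8 tested members to pass, where 2.09% of 16190 genes passed and 0.55% of all were lower. By single days the difference was -0.86 ± 0.16 on day 1 (adjusted p = 0.00241), -0.30 ± 0.16 on day 7 (adjusted p = 0.646) and -0.16 ± 0.17 on day 27 (adjusted p = 1), taken singly after seeing the data. Over all genes 1678 passed on day 1 alone and 0 on day 7 or day 27 alone. Without air rats 51 and 53 the mean difference was -0.48 ± 0.09 (edgeR adjusted p = 0.0027), where 1421 genes passed over all, against 338 with them. The call held in 61 of 64 fits that left out 1 library. It was lost without dust rat 48 of day 7, air rat 6 or dust rat 16 of day 27, all of the 10 mg/m3 study, where the adjusted p was 0.0503, 0.0613 and 0.0501.

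Among the listed genes, the same difference passed for 2. Skap2, an adaptor that binds the signalling complex of Sirpa in macrophages, was higher by 0.22 ± 0.06 (adjusted p = 0.0411). Syk, the kinase that carries the Clec7a signal, was lower by 0.33 ± 0.09 (adjusted p = 0.0402). Spi1, the gene of the macrophage transcription factor PU.1, was at -0.30 ± 0.09 and did not pass (adjusted p = 0.0619). The 30 and 10 mg/m3 studies also differ in their air rats and count tables, so concentration and study cannot be told apart in this difference.

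None of the scavenger receptors passed in a comparison of dust with air. Msr1, the class A receptor that binds oxidised lipoprotein and silica, had a mean log2 fold change of 0.14 ± 0.07 at 30 mg/m3 (adjusted p = 0.307) and 0.06 ± 0.12 at 10 mg/m3 (adjusted p = 0.872). Its highest levels of all were 64.9 and 64.2 CPM, in dust rats 61 and 62 of day 1 at 30 mg/m3. Cd36, the class B receptor for fatty acids and oxidised lipoprotein, was at 0.13 ± 0.06 at 30 mg/m3 (adjusted p = 0.244) and at -0.05 ± 0.10 at 10 mg/m3 (adjusted p = 0.887). Of 31 tested scavenger and phagocytic receptors other than the members, 0 passed in the mean effect at 30 mg/m3 (4 at an unadjusted p under 0.05, 0 by DESeq2) and 12 were above 0. Of all 15551 genes, 2764 had an unadjusted p under 0.05 in this comparison. The smallest p among the 31 receptors belonged to Axl, a receptor for apoptotic cells, at -0.12 ± 0.04 (adjusted p = 0.116), and to Clec4e, a receptor for mycobacterial glycolipid, at 0.39 ± 0.18 (adjusted p = 0.262).

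Cd36 was the member whose level differed most between the studies. All 36 rats of the 30 mg/m3 study had 47.2 to 106.7 CPM, with a median of 60.8 CPM, and all 28 rats of the 10 mg/m3 study had 27.6 to 55.4 CPM, with a median of 34.3 CPM, so the studies overlapped only at the edges. Air rats alone gave a like picture, with 50.4 to 66.6 CPM in the 30 mg/m3 study and 27.6 to 55.4 CPM in the 10 mg/m3 study. The lowest group mean at 30 mg/m3 was 57.04 ± 2.86 CPM (SD, n = 6), in air rats of day 7, and the highest at 10 mg/m3 was 39.5 ± 7.9 CPM (SD, n = 4), in air rats of day 27. The ranges of these neighbours in the order of groups did not overlap. How many other genes have such a gap between the studies was not counted, so it does not set Cd36 apart from genes outside the members. The studies were counted in separate tables, so this difference was not tested, and concentration, study and batch cannot be told apart in it. For the other 7 tested members, every group's range overlapped that of the next group in the order of means.

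The lectin receptors did not pass either. Mrc1, which binds mannose-rich sugars, was at -0.13 ± 0.06 at 30 mg/m3 (adjusted p = 0.27) and -0.15 ± 0.08 at 10 mg/m3 (adjusted p = 0.571). Clec7a, the receptor for fungal beta-glucan, was at -0.07 ± 0.08 and -0.13 ± 0.10 in those 2 studies (adjusted p = 0.669 and 0.654). Of 12 tested genes of Clec7a signalling, 0 passed in the mean effect at 30 mg/m3 (3 at an unadjusted p under 0.05, 0 by DESeq2), with Syk at -0.15 ± 0.05 (adjusted p = 0.142) and the kinase Prkcd at -0.08 ± 0.04 (adjusted p = 0.255).

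Siglec1, the sialoadhesin of lymphoid and interstitial macrophages, was highest in dust rats of day 1 at 10 mg/m3. They had 17.74, 22.07, 26.95, 21.54 and 10.99 CPM, against 9.65, 12.6, 13.7, 10.4 and 15.9 CPM in the air rats. All dust rats but rat 32 were above all air rats. Its log2 fold change was 0.68 ± 0.22 (edgeR adjusted p = 0.114), and in the mean over days it was 0.11 ± 0.13 at 10 mg/m3 and -0.15 ± 0.14 at 30 mg/m3. Siglec5, a lectin of myeloid cells, had a lower mean in the dust rats of that day, with 10.09, 16.96, 14.03, 8.27 and 18.21 CPM in dust rats and 16.39, 25.35, 20.48, 17.07 and 19.01 CPM in air rats, which overlapped. Its log2 fold change was -0.51 ± 0.22 (adjusted p = 0.2).

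Cd68, the glycoprotein of the macrophage lysosome, had 33.3, 40.0, 43.6, 35.6 and 40.3 CPM in dust rats of day 1 at 10 mg/m3, against 20.7, 29.4, 27.5, 22.6 and 40.7 CPM in air rats. Air rat 21 was again the only air rat within the range of the dust rats. For Cd68 the log2 fold change was 0.46 ± 0.14 (edgeR adjusted p = 0.105; 0.0495 by DESeq2; 0.0046 without air rat 21). As for Sirpa, the fit without air rat 21 called far more genes over the whole table than the 20 of the main fit. At 30 mg/m3 the mean effect on Cd68 was -0.08 ± 0.06 (edgeR adjusted p = 0.492), and the difference between the studies was -0.28 ± 0.10 (adjusted p = 0.11). Of 13 tested lysosome partners 0 passed in the mean effect at 30 mg/m3 (0 at an unadjusted p under 0.05 and 0 by DESeq2), with the protease Ctsd at 0.11 ± 0.06 (adjusted p = 0.298) and the membrane protein Lamp2 at 0.09 ± 0.05 (adjusted p = 0.335). Of 12 tested lipid handling genes 0 passed (4 at an unadjusted p under 0.05, 0 by DESeq2), with the nuclear receptors Rxra at -0.25 ± 0.09 (adjusted p = 0.136) and Pparg at -0.19 ± 0.07 (adjusted p = 0.145).

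Counted over the 8 tested members, day 1 at 10 mg/m3 gave 0 calls by edgeR, 4 at an unadjusted p under 0.05 and 2 by DESeq2, Cd68 and Sirpa, where 0.128% of all genes passed by edgeR. Of all 15668 genes, 2957 had an unadjusted p under 0.05 on that day and 474 passed by DESeq2. The 1 listed gene to pass there was Bhlhe41, a transcription factor of alveolar macrophages that also belongs to the clock, at 0.81 ± 0.16 (adjusted p = 0.0432). Days 7 and 27 at 10 mg/m3 gave 0 calls by either tool and 0 at an unadjusted p under 0.05, where 0% of genes passed. Of all 15668 genes, 620 had an unadjusted p under 0.05 on day 7 and 369 on day 27. The mean effect at 10 mg/m3 gave 0 calls by either tool and 2 at an unadjusted p under 0.05. There 0.0319% of genes passed by edgeR, and 1453 of 15668 had an unadjusted p under 0.05. At 30 mg/m3 day 1 gave 0 calls by edgeR, 2 at an unadjusted p under 0.05 and 1 by DESeq2, Sirpa, where 0% of genes passed by edgeR. Of all 15551 genes, 2334 had an unadjusted p under 0.05 on that day and 40 passed by DESeq2. Day 7, where 0.0643% of genes passed, and day 27, where 0% passed, gave 0 calls by either tool and 1 each at an unadjusted p under 0.05. Of all 15551 genes, 776 had an unadjusted p under 0.05 on day 7 and 1141 on day 27. The members' median log2 fold change in the mean effect was -0.08 at 30 mg/m3, against 0.01 over all genes, and 0.01 at 10 mg/m3, against -0.01. Dust effects that depended on the day gave 0 calls by either tool in both studies, with 3 members at an unadjusted p under 0.05 at 10 mg/m3 and 1 at 30 mg/m3, where 0% of genes passed by edgeR in each. Such an unadjusted p was found for 1141 of 15668 genes at 10 mg/m3 and 688 of 15551 at 30 mg/m3.

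**Figure D2:**
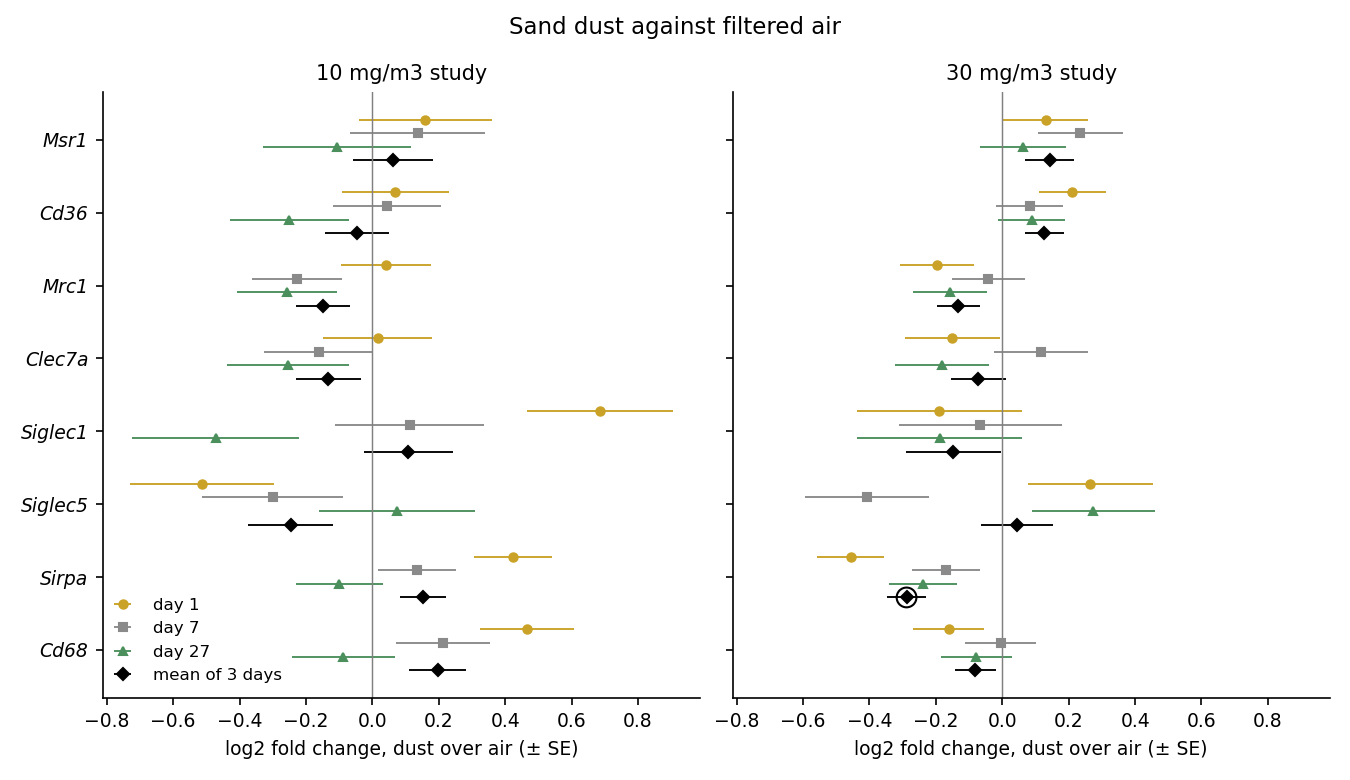
Log2 fold change of dust over air with its SE for the 8 tested members, in the 10 mg/m3 study on the left and the 30 mg/m3 study on the right, for each day and for the mean of the 3 days. A black ring marks an edgeR adjusted p under 0.05: it surrounds the mean effect on Sirpa at 30 mg/m3, -0.29, and no other point.

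**Figure D3:**
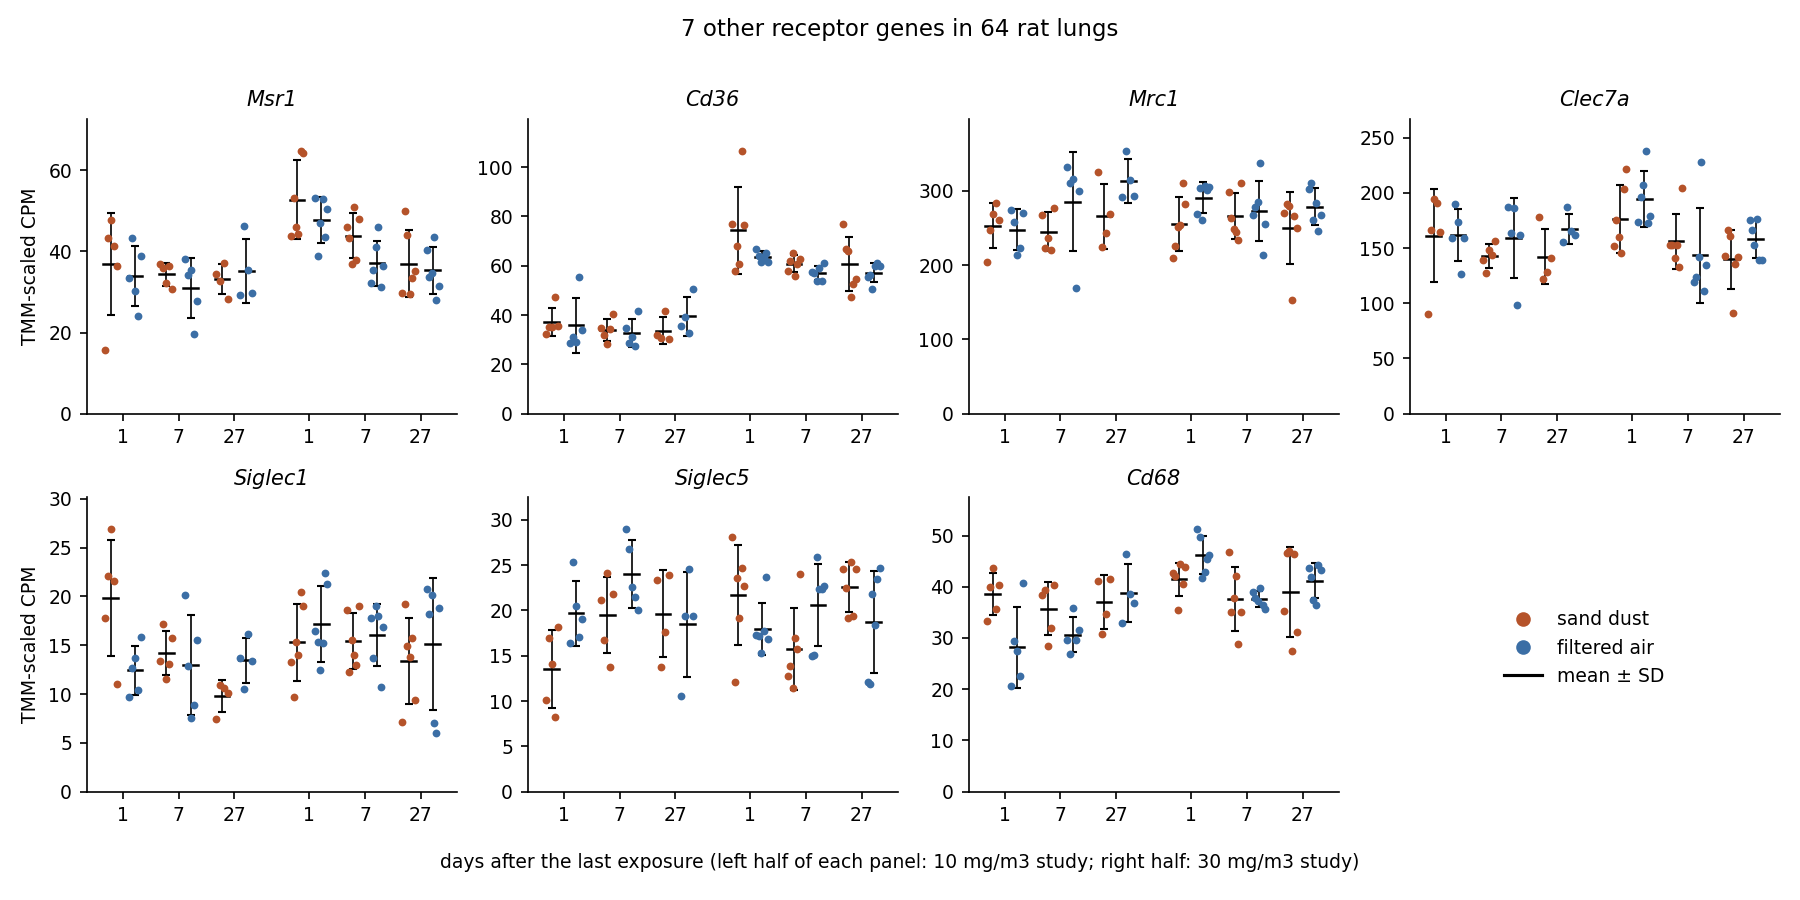
Levels of the other 7 tested members in TMM-scaled CPM, 1 point per rat, with the mean and SD of each group in black and dust rats left of air rats of the same day. The left side of each panel is the 10 mg/m3 study and the right side the 30 mg/m3 study. Cd36 is the gene whose medians differ most plainly between the sides, at 60.8 CPM for 30 mg/m3 and 34.3 CPM for 10 mg/m3.

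Day 27 was set against day 1 within dust rats and within air rats, to show how the receptors changed with time. At 30 mg/m3, 3 of 8 tested members passed in dust rats, where 34.3% of genes passed, 17% higher and 17.3% lower. In air rats 1 member passed, where 12.9% of genes passed and 7.36% of all were lower. These shares are near those of the members, so the counts by themselves set the members apart from other genes in neither arm.

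Mitochondrial ribosomal RNA took a larger part of the counts on day 27 than on day 1 in the mean of all 4 arms. In the 30 mg/m3 study it averaged 1.00 ± 0.46% in dust rats of day 27 and 0.27 ± 0.13% in those of day 1, and 1.14 ± 0.43% in air rats of day 27 and 0.459 ± 0.283% in those of day 1 (SD, n = 6 each). At 10 mg/m3 dust rats had 2.62 to 3.18% on day 27 and 0.493 to 2.62% on day 1, without overlap by a narrow margin, and air rats had 3.02 to 4.00% on day 27 and 0.0961 to 3.01% on day 1. Its part in the changes with time was not tested.

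Msr1 fell with time in both arms at 30 mg/m3. Dust rats had a lowest, median and highest level of 29.5, 34.3 and 49.9 CPM on day 27, against 43.9, 49.6 and 64.9 CPM on day 1, and the days overlapped. Air rats had 28.0, 34.2 and 43.6 CPM on day 27, against 38.8, 48.8 and 53.2 CPM on day 1, also with overlap. The log2 fold change was -0.51 ± 0.13 in dust rats (edgeR adjusted p = 0.0035), called in 12 of 12 fits that left out 1 library. In air rats it was -0.44 ± 0.13 (adjusted p = 0.023), called in 8 of 12. The call in air rats was lost without rat 49 or 53 of day 1 or rat 85 or 87 of day 27, with a highest adjusted p of 0.0659, and with rats 51 and 53 both left out it was -0.46 ± 0.14 (adjusted p = 0.043).

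Sirpa rose with time in dust rats of the 30 mg/m3 study, to a median of 163.9 CPM on day 27, against 129.8 CPM on day 1. The log2 fold change was 0.36 ± 0.10 (edgeR adjusted p = 0.00722), called in 12 of 12 fits that left out 1 library. Air rats of that study had a median of 186.9 CPM on day 27 and 181.9 CPM on day 1, a log2 fold change of 0.14 ± 0.10 (adjusted p = 0.357), or 0.01 ± 0.10 without air rats 51 and 53 (adjusted p = 0.968). The difference between these arms is part of the test of the dust effect by day, which Sirpa did not pass with those rats or without them (adjusted p = 0.981 and 0.372). At 10 mg/m3 the change was -0.18 ± 0.12 in dust rats (adjusted p = 0.459) and 0.34 ± 0.12 in air rats (adjusted p = 0.122; 0.0183 without rat 21).

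Cd36 had 47.2, 60.3 and 77.1 CPM as its lowest, median and highest level in dust rats of day 27 at 30 mg/m3, against 57.9, 72.3 and 106.7 CPM on day 1, with overlap. Over time the log2 fold change was -0.28 ± 0.10 (edgeR adjusted p = 0.0285). It held in 6 of 12 fits that left out 1 library. Without rat 61 of day 1, which had the highest level, it was -0.15 (adjusted p = 0.218), and it was also lost without rat 57 or 62 of day 1 or rat 92, 94 or 96 of day 27. Clec7a, at -0.33 ± 0.14 in dust rats, did not pass (adjusted p = 0.068).

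Siglec1 fell with time in dust rats of the 10 mg/m3 study, the 1 member of 8 to pass there, where 2.34% of genes passed and 0.791% of all were lower. It had 7.43, 10.95, 10.65 and 10.16 CPM on day 27, against 17.74, 22.07, 26.95, 21.54 and 10.99 CPM on day 1. The ranges did not overlap, which was so for 10% of the genes tested, but the highest rat of day 27 and the lowest of day 1 were nearly level. The log2 fold change was -1.05 ± 0.24 (edgeR adjusted p = 0.022), and it kept its call in 4 of 9 fits that left out 1 library. It was lost without rat 29 or 30 of day 1 or rat 13, 14 or 15 of day 27, with a highest adjusted p of 0.0863. Air rats of that study gave 0 calls by edgeR, 3 at an unadjusted p under 0.05 and 1 by DESeq2, Cd68, where 2.97% of genes passed by edgeR. Of all 15668 genes, 2938 had an unadjusted p under 0.05 in these air rats and 945 passed by DESeq2.

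The genes around the members changed both ways with time in dust rats of the 30 mg/m3 study, and their counts stand beside the 34.3% of all genes that passed there, 17% higher and 17.3% lower. Of 13 tested lysosome partners of Cd68, 1 rose and 7 fell, among them the protease Ctsl by 0.63 ± 0.10 (edgeR adjusted p = 8.27e-05), the hexosaminidase subunit Hexa by 0.30 ± 0.06 and Lamp2 by 0.45 ± 0.09. Of 12 tested lipid handling genes, 2 rose and 5 fell, among them Fabp5, a fatty acid carrier, by 1.01 ± 0.26, and Plin2, which coats lipid droplets, by 0.24 ± 0.07. Of 12 Clec7a signalling genes, 5 rose and 2 fell: Plcg2 rose by 0.57 ± 0.12, Syk rose by 0.38 ± 0.09 and the kinase Lyn fell by 0.23 ± 0.06. Of 12 partners of Sirpa, 3 rose and 1 fell, with the kinase Ptk2b up by 0.44 ± 0.10, Csf2ra, a chain of the GM-CSF receptor, up by 0.53 ± 0.13 and Skap2 down by 0.39 ± 0.07.

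Of 31 other scavenger and phagocytic receptors, 3 rose and 4 fell in those rats, among them Lrp1, a receptor for many extracellular ligands, up by 0.70 ± 0.17, and the collectin receptor Colec12 down by 0.64 ± 0.13. Of 11 tested alveolar macrophage markers 3 rose and 0 fell, and of 14 monocyte and interstitial macrophage markers 1 rose and 2 fell. The medians of these marker lists were -0.09 and -0.24, against -0.01 over all genes. The share that passed was below that of all genes in each of these 3 lists and near it for the partners of Sirpa. It was above that of all genes for the lysosome partners (8 of 13), the lipid handling genes (7 of 12) and the Clec7a signalling genes (7 of 12). No list was tested as a whole. In air rats Colec12, Lrp1, Ctsl, Lyn and Skap2 passed in the same direction, at -0.50 ± 0.13, 0.56 ± 0.17, -0.39 ± 0.10, -0.23 ± 0.06 and -0.23 ± 0.07. At 10 mg/m3, 1 of the listed genes passed in dust rats, the haemoglobin scavenger receptor Cd163, which rose by 0.83 ± 0.23 (adjusted p = 0.0476).

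**Figure D4:**
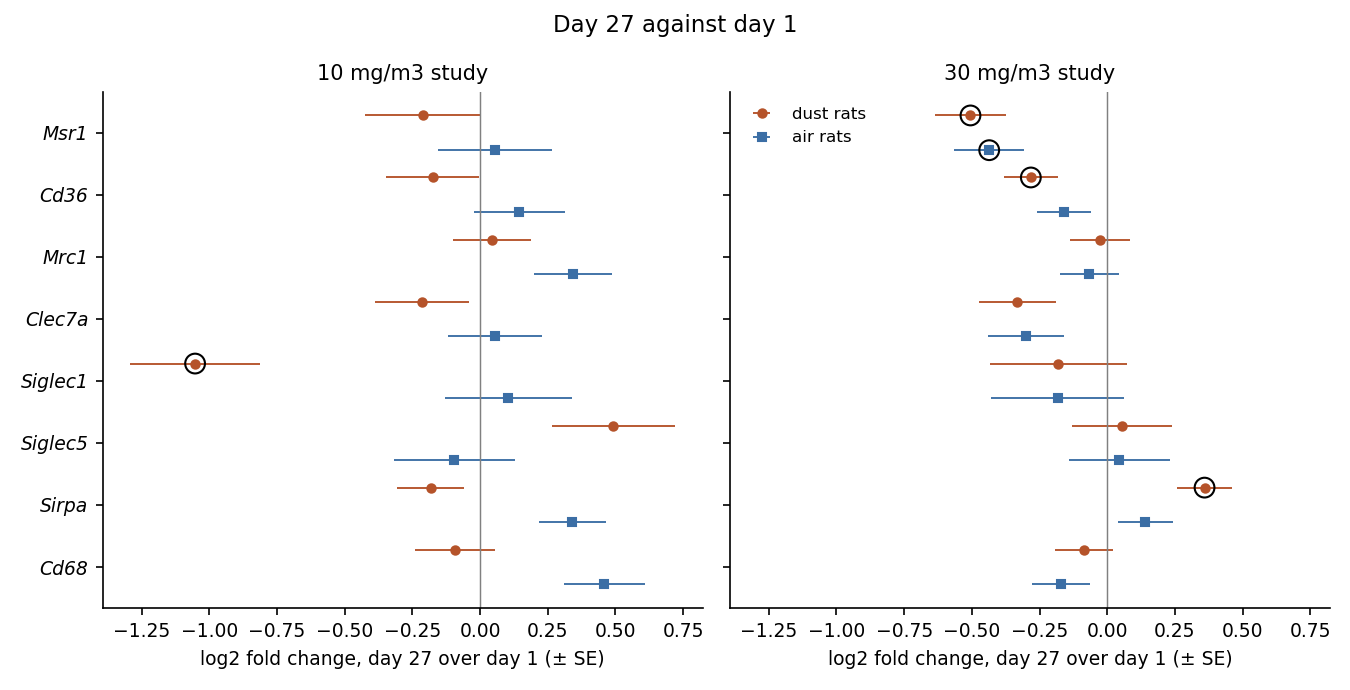
Log2 fold change of day 27 over day 1 with its SE for the 8 tested members, dust rats as circles above air rats as squares, in the 10 mg/m3 study on the left and the 30 mg/m3 study on the right. Black rings mark an edgeR adjusted p under 0.05: Siglec1 in dust rats at 10 mg/m3 (-1.05), and Msr1 in both arms, Cd36 and Sirpa in dust rats at 30 mg/m3 (-0.51 and -0.44, -0.28 and 0.36).

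The members also varied among rats of the same group, and some did so together. Over the 64 libraries, with group means removed, 28 pairs of members were compared by permutation within groups (100000 draws, two-sided, Benjamini-Hochberg over the 28 pairs). Of these, 7 pairs passed for both Pearson's r and Spearman's rho, all positive. How many pairs of other genes would pass was not counted, so this count does not set the members apart from other genes. Clec7a was closer to Ppt1, a lysosomal gene outside the members, with rho = 0.87, than to any member. Mrc1 and Clec7a had r = 0.80 and rho = 0.75, Msr1 and Clec7a had r = 0.78 and rho = 0.70, and Msr1 and Mrc1 had r = 0.60 and rho = 0.59 (adjusted p = 9.33e-05 for each, from 1e-05, the smallest these draws can give). Without the 2 libraries farthest from the median, r was 0.74, 0.69 and 0.53. Within the 10 mg/m3 study rho was 0.75, 0.65 and 0.56 for these pairs, and within the 30 mg/m3 study it was 0.75, 0.73 and 0.57. These were the 3 pairs that passed in each study alone.

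Sirpa stood in none of the 3 pairs. With Mrc1 it had r = 0.30 and rho = 0.35, past the threshold for rho alone (adjusted p = 0.088 and 0.0291). With Clec7a it had r = 0.02 and rho = 0.08 (permutation adjusted p = 0.981 and 0.62) and with Msr1 r = 0.01 and rho = 0.05 (adjusted p = 0.982 and 0.762). It varied with Cd68, at r = 0.53 and rho = 0.47 (adjusted p = 0.00042 and 0.00616; r = 0.54 without the 2 farthest libraries). Within the 30 mg/m3 study r was 0.52 and rho 0.45 (adjusted p = 0.0187 and 0.0956), and within the 10 mg/m3 study r was 0.54 and rho 0.47 (adjusted p = 0.0742 and 0.11). Sirpa and Siglec1 had r = 0.33 and rho = 0.38 (adjusted p = 0.038 and 0.0205; r = 0.36 without the 2 farthest), and rho was 0.40 and 0.34 within the studies at 10 and 30 mg/m3 (adjusted p = 0.154 and 0.209). The other 2 pairs joined Cd68 to Mrc1, at r = 0.42 and rho = 0.40 (adjusted p = 0.0093 and 0.0169), and to Msr1, at r = 0.37 and rho = 0.33 (adjusted p = 0.0262 and 0.0437). Without the 2 farthest libraries r was 0.36 for each, and rho within the 10 and 30 mg/m3 studies was 0.47 and 0.29 for Mrc1 and 0.42 and 0.21 for Msr1, none past the threshold.

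The trio was low together in single rats. Dust rat 27 of day 1 at 10 mg/m3 had 15.6 CPM of Msr1, 204 CPM of Mrc1 and 89.9 CPM of Clec7a, each the lowest of its group. Air rat 37 of day 7 at 10 mg/m3 had 19.8, 168 and 98.3 CPM of these genes, and dust rat 92 of day 27 at 30 mg/m3 had 29.5, 153 and 90.9 CPM, again the lowest of their groups. The pan-leukocyte score, a mean of log2 levels, was 7.06, 7.02 and 7.12 in these 3 libraries, where the median of all 64 was 7.36. The lowest score of all, 6.96, was that of air rat 17 of day 1 at 10 mg/m3. Mitochondrial ribosomal RNA took 2.62, 4.43 and 1.40% of the counts of rats 27, 37 and 92, against a median of 0.759%. Rat 27 also had the smallest library, with 3420235 counts. The part of these measures in the co-variation was not tested. Sirpa had 201.0, 141.8 and 136.8 CPM in rats 27, 37 and 92: it was among the higher levels of its group in rat 27, in the middle in rat 37 and next to the lowest in rat 92.

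**Figure D5:**
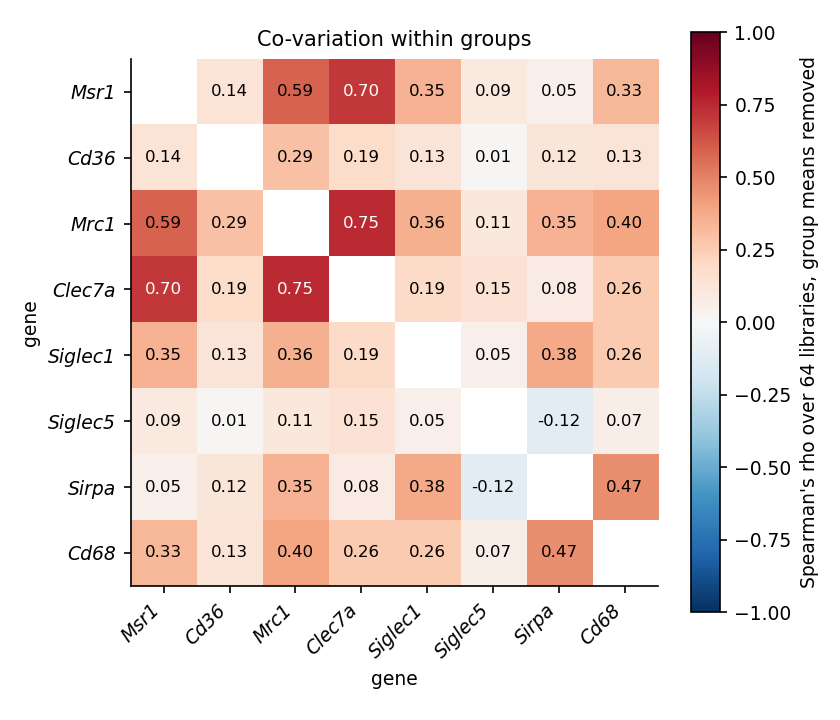
Spearman's rho between the 8 tested members over 64 libraries after group means were removed, each cell coloured and labelled with its value. Msr1, Mrc1 and Clec7a form a block of 0.59 to 0.75, and Sirpa has its highest value with Cd68, 0.47.

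Promoters of 6 of the 9 members are in the RefSeq table of the rat assembly GRCr8. The 250 bases before the start are shown for Mrc1 and Clec7a, the pair that varied together most closely, and for Cd68, which varied with Sirpa. Capitals mark the core letters of PU.1 sites, GAGGAA on the gene strand or TTCCTC for the other strand, and of AP-1 sites, TGAGTCA.
Mrc1, chr17:82157475-82157724, plus strand: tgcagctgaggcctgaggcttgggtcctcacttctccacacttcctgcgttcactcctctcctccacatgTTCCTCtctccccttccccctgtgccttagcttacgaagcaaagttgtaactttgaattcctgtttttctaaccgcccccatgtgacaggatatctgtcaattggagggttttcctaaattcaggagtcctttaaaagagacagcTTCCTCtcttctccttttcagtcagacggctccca
Clec7a, chr4:164599828-164600077, minus strand: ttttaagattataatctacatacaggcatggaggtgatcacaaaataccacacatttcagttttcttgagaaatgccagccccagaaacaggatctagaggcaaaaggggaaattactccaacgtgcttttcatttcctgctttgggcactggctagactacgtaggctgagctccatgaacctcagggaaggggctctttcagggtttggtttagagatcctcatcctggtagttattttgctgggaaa
Cd68, chr10:54882442-54882691, minus strand: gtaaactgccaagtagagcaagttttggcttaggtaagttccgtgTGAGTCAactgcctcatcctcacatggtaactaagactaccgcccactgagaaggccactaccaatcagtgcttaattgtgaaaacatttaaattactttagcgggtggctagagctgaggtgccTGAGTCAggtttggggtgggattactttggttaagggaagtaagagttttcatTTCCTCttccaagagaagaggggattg

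The Mrc1 window holds the PU.1 core on the other strand at -180 and -35 from the start, and the Cd68 window holds it at -27 on the other strand, with the AP-1 letters at -205 and -80 on the gene strand. No 2 of these matches overlap. The Clec7a window holds none of the letters searched, which also included the E-box CACGTG and the interferon response letters GAAACT, on both strands. Of 33469 promoter windows of that length in the table, 23.3% hold the PU.1 core, 4.05% the AP-1 letters, 5.59% CACGTG and 14.1% GAAACT. A match describes these letters and is no measure of binding.

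Among 12273 genes with a mean of at least 5 CPM, the genes whose pattern over the 64 libraries, with group means removed, was most like that of Sirpa were Vasp, an actin regulator, with rho = 0.71, the receptor Axl with 0.71 and Ptgfrn, a membrane protein of the immunoglobulin superfamily, with 0.70. For Clec7a they were the lysosomal thioesterase Ppt1 with 0.87, the DNA repair gene Xrcc5 with 0.86 and Lta4h, which makes leukotriene B4, with 0.83. For Msr1 they were the lysosomal enzymes Naaa, Ctsz and Ppt1, with 0.78, 0.76 and 0.76. For Mrc1 they were Clec7a with 0.75, the hyaluronan receptor Cd44 with 0.74 and the scavenger receptor Olr1 with 0.73.

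Cd68 was most like the lysosomal activator Gm2a with 0.69, the intermediate filament gene Vim with 0.69 and Gpnmb, a glycoprotein of lipid-laden macrophages, with 0.68. Siglec5 was most like the interferon-induced genes Ifit3 and Irf7 with 0.59 and 0.55, and Slfn3 with 0.54. Siglec1 was most like Uba7, the enzyme that activates ISG15, and the RNA sensor Ddx58, with 0.56 each, and the cholesterol exporter Abcg1 with 0.54. Cd36 had no gene above 0.44, with Ntpcr and Cox5a at 0.44 and Gnb5 at 0.43. These likenesses describe the 64 libraries, which share depth and cell make-up across genes, and they carry no test.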

How the data were processed

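The authors deposited 1 table of raw read counts by gene symbol for each study, not normalised. Ribosomal RNA was removed from total RNA before stranded libraries were prepared, per the labels' protocols. The submitters' processing notes name HISAT2 2.1.0 and HTSeq 0.6.1 beside Trimmomatic 0.35, SAMtools 1.8 and bcl2fastq 2.19, and the build Rnor_6.0. Neither the annotation nor the strand option used in counting is given in the sources used here, which leaves antisense and overlapping genes uncertain.

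Tests ran in edgeR 4.0.16 under R 4.3.3: TMM factors, filterByExpr with a minimum count of 10 and a minimum total of 15, the robust quasi-likelihood F test, and Benjamini-Hochberg adjustment over all genes at 0.05. All 6 groups of each study were modelled jointly (15668 genes at 10 mg/m3 and 15551 at 30 mg/m3), and all 64 libraries entered 1 fit of 16190 genes for the difference between the studies. Levels use factors from all 64 libraries together. SE is the log2 fold change divided by the square root of F. The procedure was also run on simulated counts, with the same spread for every gene and with changes larger than the mean fall of Sirpa at 30 mg/m3. That run therefore does not show how well an effect of that size is found in these lungs. Alternatives were DESeq2 1.42.0, other size factors, no filter, the compared groups alone, covariates, and leaving out libraries. Detection limits cover counting error only, while SEs and p-values also take in the spread between libraries.

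The members and the 19 gene lists were chosen with earlier results of these data known. Beside the members, the named genes are those of each list past the threshold (up to 3), or, where none passed, up to 2 of smallest p, in the comparisons described, and the 3 genes most like each member. Spi1 in the difference between studies follows this rule, and Cd47 was named for its role. The lists of capillary and lymphatic endothelium, T cell, B cell, alveolar type 1 and type 2, airway, adipocyte and liver plasma protein genes were tested too. None of their genes passed in the mean effect at 30 mg/m3 by edgeR. Of the 188 genes of all 19 lists, 36 had an unadjusted p under 0.05 there, as did 2764 of all 15551 genes.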

Additional observations from a re-analysis of the deposited data

Results flagged for a closer look

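Of 96 combinations of a tested member and a group, 9 (9.38%) held a rat far from the rest of its group by Dixon's criterion, which chance would give in about 5%. Cd36 was high in dust rat 31 of day 1 at 10 mg/m3, at 47.13 CPM, where the next rat had 35.69 CPM. It was also high in air rat 20 of that day, at 55.41 CPM against a next value of 34.08 CPM, and in dust rat 15 of day 27 at 10 mg/m3, at 41.64 CPM against 32.03 CPM. Clec7a was high in dust rat 79 of day 7 at 30 mg/m3, at 204.4 CPM with the next rat at 152.7 CPM, and in air rat 69 of that day, at 228.4 CPM with the next at 142.3 CPM.

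Mrc1 was low in dust rat 92 of day 27 at 30 mg/m3, at 152.5 CPM, where the next rat had 249.2 CPM. Air rat 37 of day 7 at 10 mg/m3 was low in both Mrc1, at 168.5 CPM with the next rat at 299.6 CPM, and Clec7a, at 98.28 CPM with the next at 162.1 CPM. Siglec5 was high in air rat 54 of day 1 at 30 mg/m3, at 23.63 CPM with the next at 17.67 CPM.

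The mean dust effect on Sirpa differed between the studies at 30 and 10 mg/m3, with a tested difference of -0.44 on the log2 scale (edgeR adjusted p = 0.0219).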

How the results depend on the processing

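No paired analysis was possible because the rats carry unique numbers and the groups share none. No call of a member was reversed in any alternative; a change of sign was counted only where the value passed the threshold in either fit. Members called moved under DESeq2 from 0 to 2 on day 1 at 10 mg/m3, to 1 in air rats of day 27 against day 1 at 10 mg/m3 and to 1 on day 1 at 30 mg/m3. Without air rats 51 and 53, 1 member was called on day 1 at 30 mg/m3. The mean effect at 30 mg/m3 had 1 member called with all days and 0 for days 7 and 27 alone, and the difference between studies had 1 in all, 2 for day 1 alone and 0 for day 7 or day 27 alone. Pairs of members that passed numbered 7 over both studies, 3 within the 10 mg/m3 study and 3 within the 30 mg/m3 study, which hold fewer libraries.

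Leaving out 1 library gave 0 to 3 members called on day 1 at 10 mg/m3, 0 to 1 on day 1 at 30 mg/m3 and 0 to 2 in the difference between studies. For day 27 against day 1 it gave 0 to 1 in dust rats and 0 to 2 in air rats at 10 mg/m3, and 2 to 4 in dust rats and 0 to 1 in air rats at 30 mg/m3. The 3 members on day 1 at 10 mg/m3 were called without air rat 21, and the 1 on day 1 at 30 mg/m3 without air rat 53. The cause of these moves was not tested.

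Genes called over the whole table moved by more than 1.5 times as follows. Day 1 at 10 mg/m3 had 20, against 11 with RLE factors, 5 without the filter, 474 by DESeq2, 8 with the heart muscle score, 0 with the clock score and 3 with the compared groups alone. The mean effect at 10 mg/m3 had 5, against 25 by DESeq2, 2 with the heart muscle score and 0 with the clock score, and day 27 there had 0 (369 at an unadjusted p under 0.05, 0 by DESeq2), against 1 with the clock score and 1 with the compared groups alone. The mean effect at 30 mg/m3 had 187, against 107 without the filter, 420 by DESeq2, 1014 without air rats 51 and 53 and 81 with the clock score. It had 0 for days 7 and 27 alone. Day 1 at 30 mg/m3 had 0 (2334 at an unadjusted p under 0.05), against 40 by DESeq2, 877 without those rats and 1 with the heart muscle score. Day 7 there had 10, against 6 without the filter, 55 by DESeq2, 6 with the heart muscle score and 36 with the compared groups alone, and the effect by day had 0 (688 at an unadjusted p under 0.05), against 46 by DESeq2 and 3 without those rats. The difference between studies had 338, against 59 without the filter, 823 by DESeq2, 1421 without those rats, 1678 for day 1 alone and 0 for day 7 or day 27 alone. Day 27 against day 1 had 366 in dust rats at 10 mg/m3, against 835 by DESeq2, 466 in air rats there, against 268 without the filter and 945 by DESeq2, and 2007 in air rats at 30 mg/m3, against 1052 without air rats 51 and 53. Leaving out 1 library gave 1 (without air rat 17) to 1147 genes (without air rat 21) on day 1 at 10 mg/m3, 0 to 220 (without air rat 53) on day 1 and 22 (without dust rat 79) to 610 (without air rat 53) in the mean effect at 30 mg/m3, and 4 (without air rat 6) to 1046 (without air rat 21) in the difference between studies. Low counts limit Marco, which no setting makes detectable.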
